A study of Mus musculus with 21 samples.

Results

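Neutrophil granule genes encode the proteins that neutrophils and their bone marrow precursors store in cytoplasmic granules. The 10 genes described here, Mpo, Elane, Prtn3, Ctsg, Ltf, Ngp, Camp, Lcn2, S100a8 and S100a9, were found by symbol among the 24421 gene symbols of the deposited tables. They were chosen with earlier results of the same libraries known, in which they were higher in cells carrying the empty vector than in cells carrying either oncogene. Differences between the conditions are therefore given as a description, and no test on them is given as support. The same holds for the lists of other genes described below, whose choice was also made with earlier results known. All 10 passed the filter on low counts, as did 12786 genes in all, and the genes with the fewest counts passed it through their counts in the empty vector libraries.

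The libraries were made from primary B cell precursors of 53BP1-/- C57BL/6 mice, so that by their label cells of every condition lacked the DNA repair factor 53BP1. Bone marrow was depleted of erythrocytes and cultured with interleukin-7 at 10 ng/ml. The starting material of such cultures is otherwise described as total bone marrow. The cells were transduced with the retroviral vector MIGR1 without an insert (EV), with MIGR1 encoding the human fusion kinase BCR-ABL1 p210, or with MIGR1 encoding mouse C-MYC, a transcription factor. Poly(A) RNA was sequenced 7 to 9 days after transduction, with 2 libraries per condition and 6 in all. No sort of the transduced cells is given in the sources used here. The age of the mice and whether the replicates came from different mice are not given in the sources used here, so p-values measure the spread between these libraries.

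Library totals lay between 20687092 and 24095955 counts, with 4.07% to 5.28% of each taken by its 10 most counted genes. Trp53bp1, the gene of 53BP1, had 342 to 723 counts in every library, and since counts per gene do not show which exons were read, they do not check the genotype. Myc, which would also count reads of the C-MYC vector insert, had 37920 and 27450 counts in the C-MYC libraries and between 3277 and 8381 in the others. The labelled cell type was checked with 14 B cell precursor genes, among them Cd79a, Vpreb1 and Igll1, whose summed level was 6629 to 7480 counts-per-million (CPM) in EV. The granule genes together took 0.117% and 0.0388% of the counts of the EV libraries, so they were a minor component of B cell precursor cultures.

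Neutrophils form their granules in sequence while they mature in the bone marrow. Promyelocytes make the azurophil (primary) granules, which hold myeloperoxidase and serine proteases, and the myelocytes and metamyelocytes that follow make the specific (secondary) granules, which hold lactoferrin, cathelicidin and lipocalin. The transcription factors PU.1 and C/EBP are known to drive this programme. S100A8 and S100A9 pair to form calprotectin, a calcium- and zinc-binding protein that fills the cytosol of neutrophils and monocytes. B cell precursors are not known for making these proteins.

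All 10 genes are protein-coding in the GENCODE annotation of GRCm38. Mpo, which encodes myeloperoxidase, lies at chr11:87793581-87804413 on the plus strand. The neutrophil elastase gene Elane (chr10:79886247-79888215, plus) and the proteinase 3 gene Prtn3 (chr10:79874476-79883174, plus) lie 3.07 kb apart. Ctsg, which encodes the protease cathepsin G, lies at chr14:56099881-56102574 on the minus strand. The lactoferrin gene Ltf (chr9:111019271-111042767, plus), the neutrophilic granule protein gene Ngp (chr9:110419747-110423012, plus) and the cathelicidin gene Camp (chr9:109847379-109849617, minus) lie on chromosome 9, with 570 kb between Camp and Ngp and 596 kb between Ngp and Ltf. Lcn2, which encodes the iron-siderophore binding protein lipocalin 2, lies at chr2:32384633-32388252 on the minus strand. S100a8 (chr3:90668978-90670035, plus) and S100a9 (chr3:90692632-90695721, minus) lie 22.6 kb apart in the S100 gene cluster.

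Stretches of promoters are shown because the granule genes moved together and because all 4 azurophil promoters hold 1 motif in common. They were read from RefSeq promoters of GRCm38.p6, of which 250 bases before the transcript start were searched for 8 short motifs chosen after the sequences had been seen. A PU.1 core (GAGGAAG, either strand) was present in the promoters of all 4 azurophil genes and of Lcn2 and S100a8, and in 10.6% of all 32851 promoters. The azurophil promoters read, 5′ to 3′ on the strand of the gene and with the core in capitals:
Mpo (chr11:87793534-87793586, plus): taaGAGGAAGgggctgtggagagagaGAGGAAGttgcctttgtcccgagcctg
Elane (chr10:79886207-79886253, plus): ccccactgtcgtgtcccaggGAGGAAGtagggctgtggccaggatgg
Prtn3 (chr10:79879552-79879598, plus): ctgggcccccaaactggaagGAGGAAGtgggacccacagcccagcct
Ctsg (chr14:56102764-56102810, minus): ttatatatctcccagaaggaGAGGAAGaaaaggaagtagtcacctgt

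A C/EBP-type motif (TTGCNNAA, either strand) was present in Ltf, Ngp, Lcn2 and S100a9 and in 9.56% of all promoters, and was not found in the 4 azurophil genes. Of the remaining motifs, TTACNNAA (C/EBP, 8.09% of all promoters) and CACGTG (an E-box, 6.02%) were in 0 of the 10 promoters, TGTGGT (RUNX, 14%) was in S100a9 and Ctsg, and AGATAA, an erythroid motif (9.99%), was in S100a9 and Ltf. AACNGT, a MYB motif found in 22.3% of all promoters, was in 5. TATAAA on the strand of the gene (7.59%) was in S100a8, at −30 to −25. The promoter of Camp held none of the PU.1 and C/EBP motifs. The Prtn3 stretch lies before the RefSeq start but inside the span of the gene in GENCODE, and all 48 bases of the Lcn2 stretch around its C/EBP-type motif are exonic in GENCODE. A match of letters is a description of these windows and not a bound site. The stretches around the C/EBP-type motif, in capitals, read:
Ltf (chr9:111019197-111019244, plus): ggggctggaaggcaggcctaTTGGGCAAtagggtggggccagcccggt
Ngp (chr9:110419650-110419697, plus): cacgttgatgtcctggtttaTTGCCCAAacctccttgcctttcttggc
S100a9 (chr3:90695930-90695971, minus): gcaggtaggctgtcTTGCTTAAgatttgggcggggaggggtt

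All 10 genes were higher in both EV libraries than in any of the 4 oncogene libraries, and their summed level was about 20 times that of either oncogene condition. The sum was 1135 and 368 CPM with EV (replicates 1 and 2), 47.5 and 30.0 CPM with BCR-ABL1, and 31.2 and 41.2 CPM with C-MYC, where CPM are scaled by TMM, edgeR's correction for composition. The EV mean of 752 ± 543 CPM (SD, n = 2) was 19.4 times the BCR-ABL1 mean of 38.8 ± 12.4 CPM and 20.8 times the C-MYC mean of 36.2 ± 7.11 CPM. The EV replicates stood apart from each other: EV replicate 1 alone was 29.3 and 31.4 times the means of BCR-ABL1 and C-MYC, and EV replicate 2 alone was 9.48 and 10.2 times these means. The groups do not overlap for any of the 10 genes, and the same order of libraries was found for 22.8% of all tested genes. In libraries of bulk RNA, fewer cells of a type and less RNA per cell cannot be told apart.

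**Figure D1:**
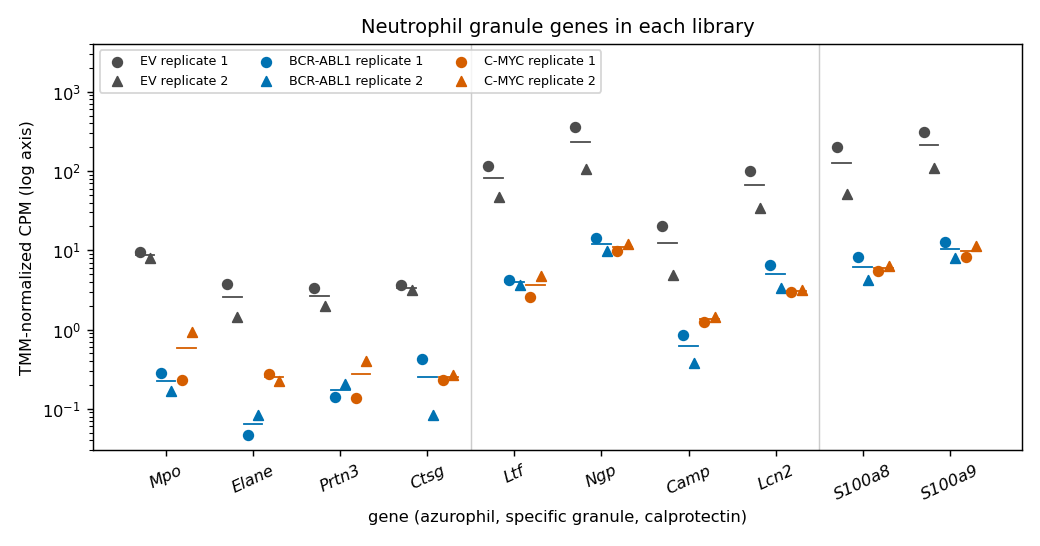
TMM-normalized CPM on a log axis of each neutrophil granule gene in the 6 libraries, with circles for replicate 1, triangles for replicate 2 and bars for the mean of each condition. Both EV libraries lie above the BCR-ABL1 and C-MYC libraries for all 10 genes, and EV replicate 1 lies above EV replicate 2.

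The azurophil genes had at most 205 counts in any library. Mpo, whose product makes hypochlorous acid from hydrogen peroxide, had 205 and 191 counts with EV, 6 and 4 with BCR-ABL1, and 5 and 21 with C-MYC. Its level was 8.78 ± 1.13 CPM (SD, n = 2) with EV, 0.225 ± 0.084 CPM with BCR-ABL1 and 0.586 ± 0.504 CPM with C-MYC. The EV replicates of Mpo were close together, and C-MYC replicate 2 was the highest of the oncogene libraries. The fitted log2 fold change against EV was −5.27 ± 0.58 (SE) under BCR-ABL1 and −3.89 ± 0.51 under C-MYC. Without C-MYC replicate 2, the value for C-MYC was −5.22, and without C-MYC replicate 1 it was −3.20.

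The genes of the neutrophil serine proteases had at most 80 counts in any library. Elane had 80 and 34 counts with EV, 1 and 2 with BCR-ABL1, and 6 and 5 with C-MYC. The BCR-ABL1 libraries did not exceed the floor of 3 counts. The ratio of the pooled EV level to theirs, 37.9, has a 95% counting interval of 12.6 to 186. In C-MYC, the log2 fold change of Elane against EV was −3.33 ± 0.61 (SE). Prtn3 had 71 and 48 counts with EV, 3 and 5 with BCR-ABL1, and 3 and 9 with C-MYC, with log2 fold changes against EV of −3.87 ± 0.58 and −3.26 ± 0.55. Ctsg had 78 and 75 counts with EV, 9 and 2 with BCR-ABL1, and 5 and 6 with C-MYC, with log2 fold changes of −3.75 ± 0.56 and −3.73 ± 0.56. As for Mpo, the EV replicates of Ctsg were close to each other, whereas its BCR-ABL1 replicates were not. Its value in BCR-ABL1 was −5.25 without BCR-ABL1 replicate 1 and −2.97 without BCR-ABL1 replicate 2.

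The specific granule genes Ngp, Ltf and Lcn2 reached far higher counts, and all 4 genes of the class were uneven between the EV replicates. Ngp, a cathelicidin-related gene, had 7782 and 2549 counts with EV, 301 and 236 with BCR-ABL1, and 215 and 269 with C-MYC. Its log2 fold change was −4.29 ± 0.55 (SE) under BCR-ABL1 and −4.42 ± 0.55 under C-MYC. Ltf, whose product binds iron, had 2475 and 1132 counts with EV, 88 and 89 with BCR-ABL1, and 56 and 107 with C-MYC, and its log2 fold changes were −4.37 ± 0.47 and −4.46 ± 0.47. The lowest EV value of Ltf was 9.85 times the highest value of the oncogene libraries, the widest gap of the set.

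Camp, the gene of the antimicrobial peptide precursor, had 429 and 117 counts with EV, 18 and 9 with BCR-ABL1, and 27 and 32 with C-MYC. Its lowest EV value was 3.40 times the highest oncogene value, the narrowest gap of the set. The log2 fold changes of Camp were −4.35 ± 0.73 (SE) and −3.21 ± 0.67. Lcn2, whose product withholds siderophore-bound iron from bacteria, had 2117 and 826 counts with EV, 138 and 81 with BCR-ABL1, and 64 and 71 with C-MYC. The log2 fold changes of Lcn2 were −3.76 ± 0.52 and −4.44 ± 0.55. Lcn2 and Camp thus stood in opposite order in the oncogene conditions, with values for which the difference did not pass the test given below.

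The calprotectin genes were lower by nearly the same factor in both oncogene conditions. S100a8 had 4324 and 1223 counts with EV, 174 and 101 with BCR-ABL1, and 118 and 143 with C-MYC. S100a9 had 6726 and 2606 counts with EV, 265 and 194 with BCR-ABL1, and 179 and 255 with C-MYC. The log2 fold changes in BCR-ABL1 were −4.35 ± 0.65 (SE) for S100a8 and −4.36 ± 0.51 for S100a9, and those in C-MYC were −4.42 ± 0.65 and −4.43 ± 0.51.

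**Figure D2:**
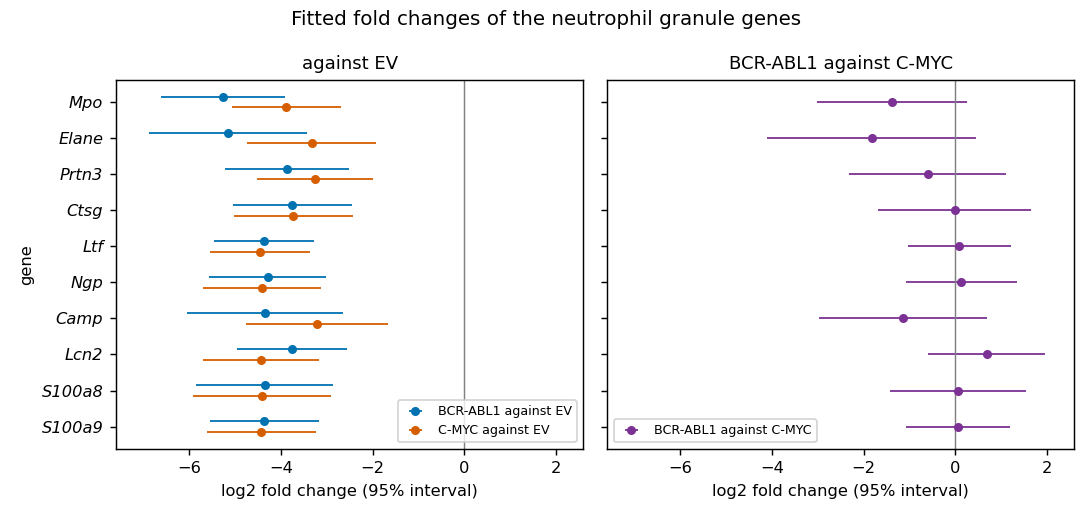
Fitted log2 fold changes of the 10 genes with 95% intervals, against EV for BCR-ABL1 and C-MYC (left) and between BCR-ABL1 and C-MYC (right). The values against EV lie between −5.27 and −3.21, and those between the oncogenes lie on both sides of 0. The BCR-ABL1 value of Elane rests on 1 and 2 counts.

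All 10 genes had an edgeR adjusted p below 0.05 and were lower in BCR-ABL1 than in EV, beside 12.0% of all tested genes called lower and 5.08% called higher. All 10 were likewise called lower in C-MYC, beside 24.5% of tested genes called lower and 18.6% called higher. Since the genes were chosen on these comparisons, which share the EV libraries, the counts describe the choice. The 10 genes had a median log2 fold change of −4.35 with BCR-ABL1 and of −4.15 with C-MYC, where the medians over all tested genes were 0.001 and −0.076. Without EV replicate 1 the medians of the 10 were −3.43 and −3.37, and without EV replicate 2 they were −4.93 and −4.49. The values of Ngp, Camp, Lcn2, S100a8 and S100a9 moved most: S100a8 in BCR-ABL1 against EV was −3.04 without EV replicate 1 and −5.03 without EV replicate 2.

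Between BCR-ABL1 and C-MYC, 0 of the 10 genes were called, beside 23.4% of all tested genes called in either direction. None had an unadjusted p below 0.05, and DESeq2 called 0 as well. The median log2 difference, BCR-ABL1 against C-MYC, was 0.02. The specific granule and calprotectin genes Ltf, Ngp, S100a8 and S100a9 differed by 0.06 to 0.13, and their 95% intervals lay within −1.42 and 1.55. Lcn2 was 0.68 higher in BCR-ABL1, with an interval from −0.59 to 1.96. The remaining values were −1.83 for Elane, −1.38 for Mpo, −1.14 for Camp, −0.61 for Prtn3 and −0.02 for Ctsg, and the interval of Elane ran from −4.12 to 0.46. The azurophil genes had at most 21 counts in any of these 4 libraries.

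The makeup of what was left in the oncogene libraries was compared with that in EV. S100a8 and S100a9 took 45.5% (95% exact Clopper-Pearson interval 44.9 to 46.1) and 43.5% (42.5 to 44.5) of the counts of the 10 genes in the EV replicates. With BCR-ABL1 they took 43.8% (40.7 to 46.9) and 40.8% (37.2 to 44.5), and with C-MYC 43.8% (40.0 to 47.6) and 43.4% (40.1 to 46.6). The share of calprotectin thus varied by a few percentage points while the sum of the 10 genes varied by an order of magnitude. The 4 azurophil genes took 1.79% (1.62 to 1.96) and 3.95% (3.56 to 4.38) with EV, 1.89% (1.14 to 2.94) and 1.80% (0.961 to 3.06) with BCR-ABL1, and 2.80% (1.70 to 4.34) and 4.47% (3.22 to 6.01) with C-MYC. Both oncogene conditions lay within or close to the range of the EV replicates, which differed from each other by more than the counting error. These intervals cover counting error only.

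Per kilobase of annotated exon, the azurophil genes had the lowest levels of the set. For this scale, CPM were taken from the plain library total without TMM, and exons were merged over all annotated transcripts of a gene. In CPM per kilobase so defined, the EV mean was 421 ± 285 (SD, n = 2) for S100a9, 200 ± 153 for Ngp and 189 ± 158 for S100a8. On the same scale Lcn2 was at 26.4 ± 17.8, Ltf at 24.6 ± 14.3 and Camp at 17.1 ± 14.5. The azurophil genes followed, with Ctsg at 3.42 ± 0.319, Elane at 2.73 ± 1.70, Mpo at 2.68 ± 0.309 and Prtn3 at 1.60 ± 0.538. Between neighbours in this order, the means of S100a8 and Lcn2 and those of Mpo and Prtn3 lay farther apart than the larger of their SDs, and those of the other pairs did not. The deposited FPKM values gave another order for single genes: relative to the median gene, Prtn3 was 11.8 times lower in FPKM than in CPM per kilobase, S100a8 3.96 times lower and Ltf 3.63 times lower, and Lcn2 was 2.22 times higher. All 10 were higher in EV in FPKM too, where S100a9 was at 649 and 231 with EV, 24.8 and 16.1 with BCR-ABL1, and 15.5 and 22.2 with C-MYC. On the log2(FPKM + 1) scale, which understates changes of low genes, Prtn3 at 0.263 and 0.160 FPKM in EV was not called in BCR-ABL1.

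The ratio between the EV replicates varied among the granule genes. The ratio of EV replicate 1 to EV replicate 2 was 1.16 for Ctsg, 1.20 for Mpo, 1.65 for Prtn3 and 2.63 for Elane. It was 2.45 for Ltf, 2.87 for Lcn2, 3.41 for Ngp and 4.10 for Camp among the specific granule genes, and 2.89 for S100a9 and 3.95 for S100a8. The medians were 1.43, 3.14 and 3.42 for the azurophil, specific granule and calprotectin genes, and 0.987 over the 12773 tested genes with counts in both EV libraries. A ratio of at least 2 was found for 7 of the 10 genes and for 3.57% of those tested genes. The classes overlapped, with Elane above Ltf, and with 1 library on either side the difference has no replicate check.

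Other genes of late neutrophil maturation shifted in the same direction between the EV replicates. Of 19 other specific granule, gelatinase and mature neutrophil genes in the table, 18 were higher in EV replicate 1, with a summed level 2.10 times that in EV replicate 2. The 12 other primary granule and promyelocyte genes were split, 6 higher in either library, and their sum differed by a factor of 0.972. Their median ratio per gene was 1.38, and Lyz2, the most abundant of them, was higher in EV replicate 2. Markers of monocytes and macrophages went the other way: 1 of 12 was higher in EV replicate 1 and the sum was 0.668 of that in EV replicate 2. The shift was not particular to neutrophil genes by sums: 5 of 6 eosinophil genes were higher in EV replicate 1, with a summed ratio of 2.02. The median ratio per gene was 1.17 for the eosinophil genes and 2.59 for the other specific and mature neutrophil genes. Of 20 neutrophil receptor genes, 17 were higher, with a summed ratio of 1.28. The B cell precursor genes had a summed ratio of 1.13, the T and NK cell genes of 1.33, and the basophil and mast cell genes of 1.39. The part of these cell types in the difference was not tested.

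**Figure D3:**
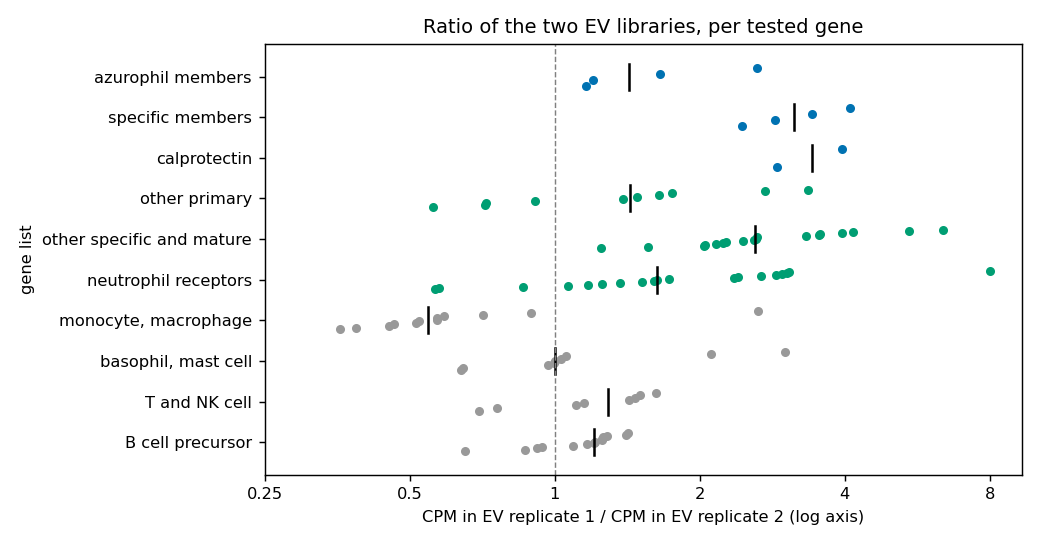
Ratio of the CPM in EV replicate 1 to that in EV replicate 2 on a log axis, 1 point per tested gene, with the median of each list as a bar and a dashed line at 1. The medians of the specific granule and calprotectin genes, 3.14 and 3.42, lie to the right of the azurophil median of 1.43, and monocyte and macrophage genes lie mostly to the left of 1.

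Among the other genes of the neutrophil lineage, those of specific and gelatinase granules fell as well. Since earlier results were known when the lists were drawn up, their numbers of called genes are a description. For comparison, edgeR called 12.0% of all tested genes lower with BCR-ABL1, and 24.5% lower with C-MYC. List genes with few counts outside EV passed the filter on low counts through their EV counts. Of 20 genes listed, 19 were in the table and 18 were tested. In BCR-ABL1, 18 of the 18 fell and 0 rose (edgeR, adjusted p below 0.05), at a median log2 fold change of −4.06, and in C-MYC 17 fell and 0 rose, at a median of −4.24. Chil3, a chitinase-like protein gene, had 2058 and 876 counts with EV, 48 and 55 with BCR-ABL1, and 53 and 90 with C-MYC, and fell by 4.86 (adjusted p = 0.00111) and 4.35 (adjusted p = 0.00056) on the log2 scale. Wfdc21 fell by 4.87 and 4.12, and Cd177, a surface protein of mature neutrophils, by 4.68 and 4.59. Mmp25, a membrane-bound matrix metalloproteinase, had log2 fold changes of −4.43 and −5.46. Ifitm6 had 206 and 36 counts with EV and 2 and 1 with C-MYC, a pooled ratio of 78.4 (95% counting interval 26.5 to 383), and the stefin gene Stfa2l1 had 112 and 23 counts with EV and 2 and 2 with C-MYC, a pooled ratio of 32.8 (12.5 to 122). Adam8, a membrane protease, fell by 2.82 in BCR-ABL1 and by 1.60 in C-MYC, and Anxa1, which encodes an inhibitor of inflammation found in many cell types, by 0.63 and 1.04.

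The count of specific and mature neutrophil genes in BCR-ABL1 was 9 without BCR-ABL1 replicate 2, and in C-MYC it was 13 without C-MYC replicate 1. Cd177 (adjusted p = 0.0542), Stfa2l1 (0.14), Ifitm6 (0.0931) and Anxa1 (0.176) were among those not called in BCR-ABL1 without its replicate 2. Anxa1, Stfa2l1 and Ifitm6 were not called without its replicate 1 either (adjusted p = 0.237, 0.0666 and 0.0986), nor was Anxa1 without EV replicate 1 (0.0798) or without C-MYC replicate 1 or 2 (0.0507 and 0.0509), and Stfa2l1 was not called in C-MYC without its replicate 1 or 2 (0.0601 and 0.0577).

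Other primary granule and promyelocyte genes, several of which are also expressed by other cell types, fell in part. Of 12 other primary granule and promyelocyte genes, 10 were tested, of which 6 fell and 0 rose in BCR-ABL1 (median −1.29) and 6 fell and 1 rose in C-MYC (median −1.35). Lyz2, the lysozyme gene of both neutrophils and macrophages, had 10615 and 16518 counts with EV, 2054 and 2953 with BCR-ABL1, and 2861 and 5034 with C-MYC. Lyz2 fell by 2.43 (adjusted p = 0.0016) and 1.73 (adjusted p = 0.00202) on the log2 scale, and it was higher in EV replicate 2, against the granule genes. Nkg7, a gene of cytotoxic granules in T and NK cells that is also listed for promyelocytes, fell by 4.31 and 4.92. The proteoglycan gene Srgn fell by 0.88 and 0.97, while Ctsc, whose product activates the granule proteases, was at −0.33 (adjusted p = 0.11) and −0.23 (adjusted p = 0.159).

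Ms4a3 and Fcnb, a pair of promyelocyte and myelocyte genes, had few counts outside EV. Ms4a3 had 36 and 23 counts with EV, 1 and 0 with BCR-ABL1, and 3 and 3 with C-MYC, and Fcnb had 30 and 10, 3 and 0, and 2 and 1. The pooled ratio of EV to BCR-ABL1 was 58.8 (95% counting interval 10.2 to 2361) for Ms4a3 and 13.3 (4.23 to 67.1) for Fcnb. Serpinb1a, which encodes an inhibitor of the neutrophil proteases, was at −0.08 in BCR-ABL1 (adjusted p = 0.917) and fell by 1.85 in C-MYC. Cd63, a membrane protein of azurophil granules and of lysosomes in general, fell by 1.71 in BCR-ABL1 and was at −0.06 in C-MYC (adjusted p = 0.907). Serpinb1a was 1.77 higher (adjusted p = 0.0197) and Cd63 1.65 lower (−1.65, adjusted p = 0.0189) in BCR-ABL1 than in C-MYC, and neither was called without BCR-ABL1 replicate 1 (adjusted p = 0.0954 and 0.13), BCR-ABL1 replicate 2 (0.0582 and 0.0601) or C-MYC replicate 2 (0.136 and 0.0922), nor Serpinb1a without C-MYC replicate 1 (0.0845). Without BCR-ABL1 replicate 1 or 2, 3 and 2 primary granule genes were called lower in BCR-ABL1 than in EV, and Srgn and Cd63 were not among them. Without C-MYC replicate 2 the fall of Serpinb1a in C-MYC was not called (adjusted p = 0.0718), nor without C-MYC replicate 1 the 1 rise of the list, that of Prss57 (0.0873). Fcnb was called in either condition in at most 3 of the 6 fits that each left out 1 library.

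Receptors by which neutrophils sense bacteria, complement and antibodies fell as well. Of 20 listed, 19 were tested, with 15 lower and 1 higher in BCR-ABL1 (median −3.20) and 17 lower and 0 higher in C-MYC (median −2.57). Itgam, the CD11b chain of complement receptor 3, had 2408 and 2143 counts with EV, 171 and 185 with BCR-ABL1, and 190 and 368 with C-MYC, and fell by 3.68 (adjusted p = 0.000591) and 3.00 (adjusted p = 0.000379) on the log2 scale. Its partner Itgb2, which lymphocytes use too, fell by 0.87 and 1.56, and the antibody receptor gene Fcgr3 by 3.20 and 1.49. The formyl peptide receptor gene Fpr1 fell by 3.78 and 4.82, and Itgb2l had log2 fold changes of −4.01 and −3.86. Fpr2 had 129 and 50 counts with EV, 4 and 2 with BCR-ABL1, and 2 and 1 with C-MYC. Without BCR-ABL1 replicate 1, neither Fpr1 (adjusted p = 0.0531) nor Itgb2 (0.0585) was called in BCR-ABL1, and Fpr1 was not called without BCR-ABL1 replicate 2 (0.0705). Il1r2, a decoy receptor for interleukin-1, had 501 and 70 counts in EV, the most uneven pair of the list, and fell by 5.34 in C-MYC (adjusted p = 0.00546), or by 4.81 without C-MYC replicate 2 (adjusted p = 0.0521).

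Between the oncogenes, 5 of the 19 tested receptor genes were lower and 3 higher in BCR-ABL1. Of all 12786 tested genes, 1468 were lower and 1523 higher. Of 12 monocyte and macrophage markers, 8 were lower and 0 higher in this comparison. Fcgr4 fell by 4.13 in BCR-ABL1 and by 1.54 in C-MYC, and was lower in BCR-ABL1 than in C-MYC by 2.59 (−2.59, adjusted p = 0.00707), as was Fcgr3 (−1.70, adjusted p = 0.00226). Fcgr4 was not called against C-MYC without BCR-ABL1 replicate 1 (adjusted p = 0.0687), nor against EV in C-MYC without C-MYC replicate 1 (0.0821). Trem1, an activating receptor of neutrophils and monocytes, rose in BCR-ABL1 and fell in C-MYC, with 353 and 246 counts with EV, 688 and 694 with BCR-ABL1, and 56 and 43 with C-MYC. Its log2 fold change was 1.20 with BCR-ABL1 (adjusted p = 0.0153) and −2.57 with C-MYC (adjusted p = 0.000556). Without BCR-ABL1 replicate 1 or 2 the rise of Trem1 was not called (adjusted p = 0.104 and 0.0759). Trem3, of the same receptor family, had 17 and 11 counts with EV, 18 and 25 with BCR-ABL1, and 1 and 3 with C-MYC. Without BCR-ABL1 replicate 2, 11 receptor genes were called lower in BCR-ABL1, and without C-MYC replicate 1, 10 were called lower in C-MYC. Against C-MYC, the 5 lower receptor genes were 1, 3 and 2 without BCR-ABL1 replicate 1, BCR-ABL1 replicate 2 and C-MYC replicate 2, and the 3 higher were 1 without BCR-ABL1 replicate 2 or C-MYC replicate 1.

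**Figure D4:**
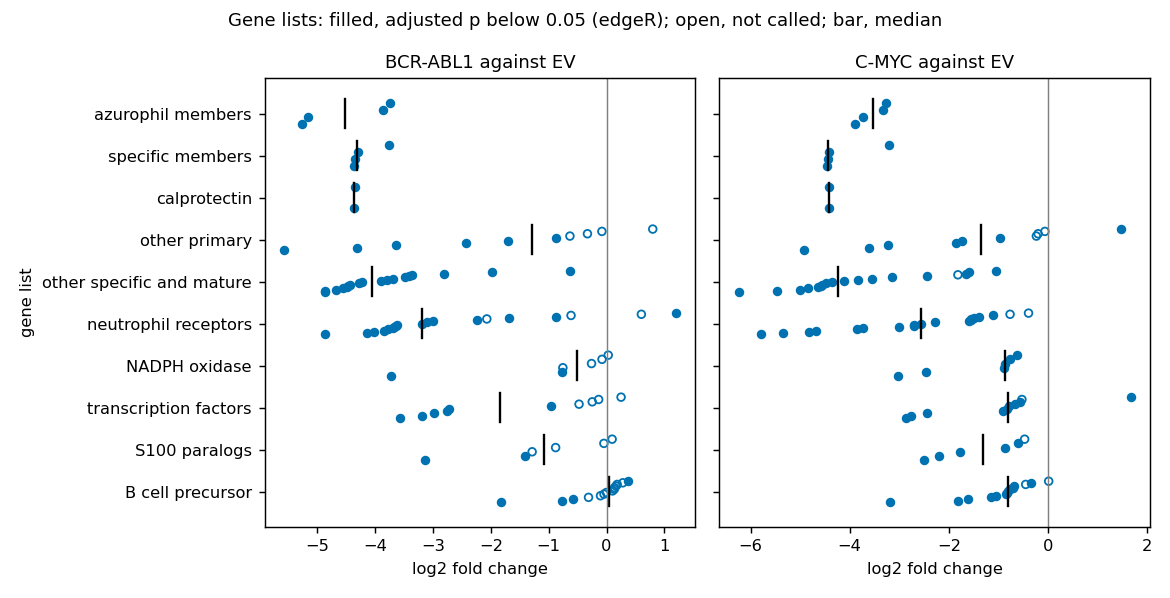
Log2 fold changes of the tested genes of each list in BCR-ABL1 (left) and C-MYC (right) against EV, filled where edgeR's adjusted p was below 0.05 and open otherwise, with the median as a bar. The median of the other specific and mature neutrophil genes, −4.06 and −4.24, lies beside those of the granule genes, and that of the B cell precursor genes at 0.05 and −0.81.

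The NADPH oxidase makes the superoxide from which myeloperoxidase products derive, and B cells express several of its subunits. Ncf1, the p47 subunit, fell by 3.73 (adjusted p = 0.000653) in BCR-ABL1 and by 3.03 in C-MYC. Rac2 (−0.08, adjusted p = 0.812), Ncf4 (0.03), Cyba (−0.26) and Cybb (−0.75, adjusted p = 0.0887) did not pass the test in BCR-ABL1. In C-MYC, Cybb fell by 2.47, Rac2 by 0.89, Cyba by 0.86 and Ncf4 by 0.63. Cybb was 1.72 higher in BCR-ABL1 than in C-MYC (adjusted p = 0.00501).

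Of 10 transcription factors of granulopoiesis, 6 fell and 0 rose in BCR-ABL1, and 8 fell and 1 rose in C-MYC. Cebpe, which is required for specific granules, had 30 and 20 counts with EV, 3 and 1 with BCR-ABL1, and 3 and 4 with C-MYC. Its pooled ratio of EV to BCR-ABL1 was 12.5 (95% counting interval 4.57 to 47.5), and it fell by 2.77 on the log2 scale in C-MYC. Cebpa, the factor of the early granulocyte and monocyte fate, fell by 3.18 in BCR-ABL1 (adjusted p = 0.00096) and by 0.90 in C-MYC (adjusted p = 0.0321), and was lower in BCR-ABL1 than in C-MYC (−2.28, adjusted p = 0.00324). Cebpb fell by 2.73 in BCR-ABL1 and was at −0.53 in C-MYC (adjusted p = 0.193). Cebpb was lower in BCR-ABL1 than in C-MYC as well (−2.20, adjusted p = 0.00425). Cebpa and Cebpb thus differed between the oncogene conditions, in which 0 of the 10 granule genes were called.

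Cebpd fell by 2.99 and 2.87, and Klf5 had 12 and 17 counts with EV, 3 and 1 with BCR-ABL1, and 1 and 4 with C-MYC. Spi1, the gene of PU.1, moved less than the C/EBP genes in BCR-ABL1. It was at −0.47 there (edgeR, adjusted p = 0.0823) and fell by 0.56 in C-MYC (adjusted p = 0.0243). With 1 library left out, the values of Spi1 were −0.66 to −0.26 in BCR-ABL1 and −0.74 to −0.34 in C-MYC. Gfi1, a repressor used by both granulocyte and lymphoid precursors, was at 0.25 in BCR-ABL1 (adjusted p = 0.708) and rose by 1.67 in C-MYC (adjusted p = 0.00988). Among factors shared with B cells, Irf8 fell by 0.95 in BCR-ABL1 and by 0.78 in C-MYC. Myb (−0.25, adjusted p = 0.578) and Runx1 (−0.14, adjusted p = 0.542) did not pass the test in BCR-ABL1. In C-MYC, Myb fell by 0.83 and Runx1 by 0.67, while Cebpa fell by 0.90. With 1 library left out, 3 and 2 factors were called lower in BCR-ABL1 without its replicate 1 or 2, and in C-MYC 3 and 2 without its replicate 1 or 2 and 5 without EV replicate 1. Without C-MYC replicate 2, Gfi1 (adjusted p = 0.0555), Irf8 (0.125), Runx1 (0.0503) and Myb (0.198) were not called in C-MYC, and without BCR-ABL1 replicate 1 or 2, Irf8 was not called in BCR-ABL1 (0.102 and 0.13). Cebpe was not called in BCR-ABL1 without its replicate 1 or 2 (0.0536 and 0.118), nor in C-MYC without its replicate 1 or 2 (0.0726 and 0.0553), and Cebpd was not called in BCR-ABL1 without its replicate 2 (0.0812). Klf5 was called in BCR-ABL1 in 0 of the 6 fits that left out 1 library. The fall of Cebpa in C-MYC was not called without EV replicate 2, without either BCR-ABL1 library or without C-MYC replicate 1 (highest adjusted p = 0.158).

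Paralogs of the calprotectin genes, most of them expressed in many cell types, fell in part. Of 10 S100 paralogs listed, 6 were tested, of which 2 fell in BCR-ABL1 and 5 in C-MYC. For all tested genes, the shares called lower were 12.0% and 24.5%. S100a4 fell by 3.14 (adjusted p = 0.000736) and 2.20 on the log2 scale, and S100a6 by 1.41 in BCR-ABL1 and in C-MYC as well (adjusted p = 0.000624). Without BCR-ABL1 replicate 2, S100a6 was not called in BCR-ABL1 (adjusted p = 0.102), which left 1 paralog. S100a10, the most abundant paralog by counts, was at 0.10 in BCR-ABL1 (adjusted p = 0.626) and fell by 0.61 in C-MYC. S100a11 was at −1.29 (adjusted p = 0.063) and fell by 1.77 (not called without C-MYC replicate 2, adjusted p = 0.0759), and S100a13 was at −0.05 (adjusted p = 0.87) and fell by 0.86.

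Neighbouring genes were examined because several of the 10 genes lie in clusters. Ptbp1, a splicing factor gene 9.71 kb from Prtn3, had between 18453 and 27473 counts in all libraries, while Prtn3 itself had at most 71. Lpo, a peroxidase gene 2.02 kb from Mpo, and S100a7a beside S100a8 had 0 counts in every library. Klhl18, 2.91 kb from Ngp, had 480 and 670 counts with EV, 427 and 465 with BCR-ABL1, and 379 and 417 with C-MYC. Klhl18 thus had more counts in both EV libraries than in any oncogene library. The same order was found for Ccrl2 beside Ltf, with 318 and 209 counts with EV and 117 to 195 in the oncogene libraries, and for 1110008P14Rik beside Lcn2, with 227 and 207 and with 166 to 179. Gzme beside Ctsg had 4 and 3 counts with EV and 0 in the others. On the other side of Ctsg, the basophil protease gene Mcpt8 had 497 and 557 counts with EV, 15 and 10 with BCR-ABL1, and 8 and 17 with C-MYC, higher than Ctsg in EV and even between the EV replicates.

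The genes most like the 10 in pattern were sought by the root mean square difference in log2 CPM, centred per gene, over the 6 libraries. These log2 CPM used a prior count of 2, which shrinks the changes of genes with few counts. The closest of all other tested genes was Batf2 (0.219), with 40 and 25 counts in EV and 1 count in all oncogene libraries together. Fitted log2 fold changes of Batf2 against EV were −8.03 in BCR-ABL1 and −5.69 in C-MYC, beyond the members' medians of −4.35 and −4.15. It was followed by Cx3cl1 (0.245), Lag3 (0.268), Eomes (0.272), Hp (0.278), Spint1 (0.294), BC021614 (0.305) and H2-M2 (0.314). Hp, the haptoglobin gene, is the 1 gene of these 8 that was also on the lists of neutrophil genes, with 149 and 77 counts with EV, 7 and 5 with BCR-ABL1, and 10 and 9 with C-MYC. Eomes, a transcription factor of T and NK cells, had 191 and 139 counts with EV, 8 and 9 with BCR-ABL1, and 7 and 15 with C-MYC. Within the set, S100a9 (0.236) and Ngp (0.257) were closest to the mean profile and Mpo (0.579) was farthest.

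Markers of other bone marrow cells moved with the granule genes. The 8 T and NK cell genes, led by Cd8a, Cd3g and Cd3e, had a summed level of 90.7 to 121 CPM in EV and 3.22 to 8.68 CPM in the oncogene libraries, and 8 of 8 fell in both conditions. The 9 basophil and mast cell genes, led by Kit, Prss34 and Hdc, were at 156 to 217 CPM in EV and 9.27 to 22.0 CPM in the oncogene libraries, and 9 of 9 fell in both. The 6 eosinophil genes, led by Prg2, were at 37.6 to 76.0 and 5.98 to 9.97 CPM, with 6 lower in BCR-ABL1 and 5 in C-MYC, and 3 and 2 in BCR-ABL1 without its replicate 1 or 2. The median log2 fold changes of these lists were −4.18, −4.90 and −3.76 under BCR-ABL1 and −4.74, −4.39 and −4.29 under C-MYC, beside −4.35 and −4.15 for the granule genes. The part of these cell types in the levels of the granule genes was not tested.

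Monocyte and macrophage markers, whose cells can also make calprotectin, fell with both oncogenes. The 12 genes, led by Mpeg1, Csf1r and C1qb, were at 577 to 863 CPM with EV, 68.0 and 88.1 CPM with BCR-ABL1, and 160 and 304 CPM with C-MYC. All 12 fell in BCR-ABL1 and 9 in C-MYC, beside 12.0% and 24.5% of all tested genes called lower. Between the oncogenes, 8 of the 12 were lower in BCR-ABL1 than in C-MYC, as were 1468 of all 12786 tested genes. The sum was higher in EV replicate 2, whereas S100a8 and S100a9 were higher in EV replicate 1. Of 11 erythroid and megakaryocyte genes, 5 had 0 counts in every library, among them the globin genes Hba-a1, Hba-a2, Hbb-bt and Hbb-bs. How reads of near-identical genes were counted is not given, so the 0 counts of the globin genes are uncertain. Of the 4 erythroid and megakaryocyte genes tested, 3 fell in both conditions, as did 2 of 4 tested dendritic cell genes, Itgax and Ccr9. Ccr9 was not called in BCR-ABL1 without its replicate 1 or 2 (adjusted p = 0.0858 and 0.11), and 4 dendritic cell genes were called in either condition without EV replicate 2. The 8 monocyte and macrophage genes lower in BCR-ABL1 than in C-MYC were 0, 3 and 0 without BCR-ABL1 replicate 1, BCR-ABL1 replicate 2 and C-MYC replicate 2.

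The B cell precursor genes, which mark the labelled cells, did not follow the granule genes as a list under BCR-ABL1. Of 14 genes, 3 fell and 1 rose there, at a median log2 fold change of 0.05. Among all tested genes, 12.0% were called lower and 5.08% higher with this oncogene. With C-MYC most of the list went the same way as the granule genes, but by less at the median. Here 12 fell and 0 rose, beside 24.5% of all tested genes called lower and 18.6% called higher. The median was −0.81, where that of the granule genes was −4.15. Their summed level was 3944 to 7612 CPM in the oncogene libraries, and the EV mean was 0.970 times the BCR-ABL1 mean and 1.64 times the C-MYC mean. Cd79a, the largest of them by counts, was at 0.28 in BCR-ABL1 (adjusted p = 0.252) and fell by 0.84 in C-MYC, and Rag1 fell by 0.77 and 3.19. Without BCR-ABL1 replicate 1 or 2, 1 gene was called lower in BCR-ABL1 and Rag1 was not (adjusted p = 0.153 and 0.135). The 1 gene called higher, Dntt, was called in 1 of the 6 fits that left out 1 library.

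**Figure D5:**
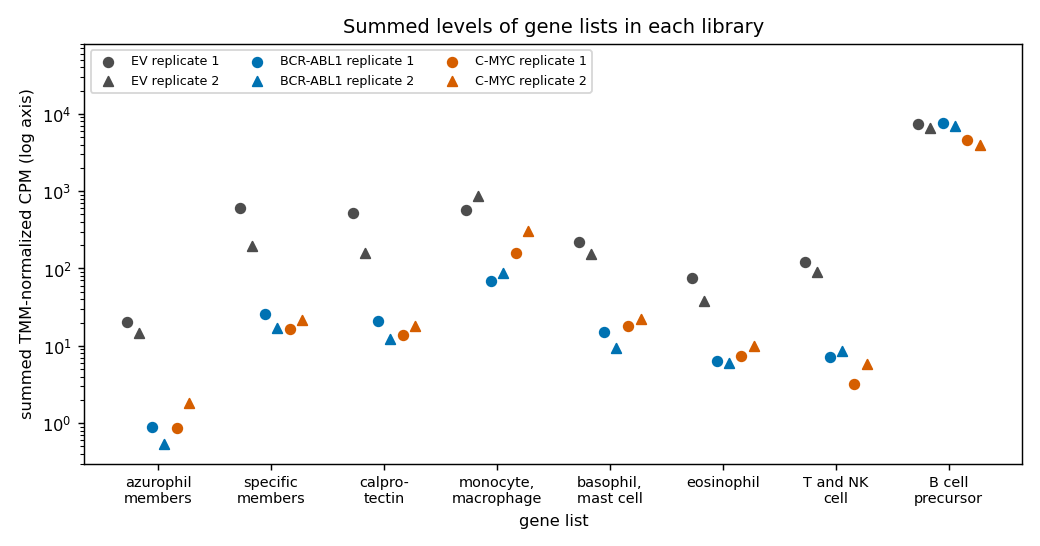
Summed TMM-normalized CPM of gene lists in each library on a log axis, with circles for replicate 1 and triangles for replicate 2. The 3 classes of granule genes and the markers of basophils and mast cells, eosinophils, and T and NK cells are lower in all 4 oncogene libraries than in both EV libraries, and the B cell precursor genes remain between 3944 and 7612 CPM.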

How the data were processed

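STAR 2.5.0, GRCm38/mm10 and UCSC known genes were used by the authors for alignment, and the authors deposited raw counts per gene symbol. The authors also deposited FPKM values made with StringTie 1.3.0. The counting program and its use of strand are not given in the sources used here. Antisense or overlapping genes and near-identical paralogs such as Stfa2l1 and the globin genes are therefore uncertain. ChIP-seq samples of the series were not used here.

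The counts were fitted with edgeR 4.0.16 in R 4.3.3: filterByExpr by condition (12786 of 24421 genes kept), TMM, 1 quasi-likelihood model of all 6 libraries without covariates (biological coefficient of variation 0.151), 2-sided tests, and Benjamini-Hochberg adjustment over all tested genes. A gene was called at an adjusted p below 0.05. The SE is the absolute log2 fold change divided by the square root of F. Alternatives used DESeq2 1.42.0 and limma 3.58.1 on log2(FPKM + 1) and log2(FPKM + 0.1), other scaling or filtering, fewer libraries and a replicate block. Python 3.11.15 with pandas 2.3.3 and matplotlib 3.10.9 read positions, promoters and plots.

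The members and lists were chosen with earlier results of these data known. Named genes are the members, the 3 of each list with the highest mean CPM, up to 3 called genes per list and comparison with the largest change, the 8 genes most like the members, and neighbours, and not every gene so chosen is reported here. Spi1 is named as well because the PU.1 motif was searched. At totals of 20687092 to 24095955, a count of 0 allows up to 3 counts.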

Additional observations from a re-analysis of the deposited data

Results flagged for a closer look

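Trem1 was the 1 gene of the lists that was called in opposite directions in the oncogene conditions. Its log2 fold change between BCR-ABL1 and C-MYC was 3.77 (edgeR, adjusted p = 0.000475), with both BCR-ABL1 libraries above and both C-MYC libraries below the EV libraries. This difference was called in all 6 fits that left out 1 library.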

How the results depend on the processing

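Under 13 alternatives, 534 of 581 values were labelled as the same. This meant a fold change within the spread of the replicates, Trem1 on its side of the threshold, or a count of genes within a fixed factor. A reversal could be recorded only for fold changes against EV and for Trem1, and 0 were. Changes of sign of the members between the oncogenes were not recorded as reversals, although their median there took both signs, as given below. All 260 values of the members against EV were below 0, a sign that the choice of the members on these libraries fixed. On log2(FPKM + 1) the members' median was −3.03 under BCR-ABL1 and −2.72 under C-MYC, and 6 other neutrophil genes differed between the oncogenes. A model of the 4 oncogene libraries called 4538 genes between them. With 1 library left out, genes called lower in BCR-ABL1 numbered 547 to 1799 and in C-MYC 1898 to 3376, and those called between the oncogenes 618 to 4519. The members called were 9 to 10, 9 to 10 and 0, with medians of −4.93 to −3.43, −4.52 to −3.37 and −0.44 to 0.25. Of the 47 other neutrophil genes tested, 22 to 43, 28 to 41 and 3 to 17 were called. In such fits the lone library of a condition is assumed to vary like the others.

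Replicate numbers are shared by the conditions, but the labels do not say that a number marks a shared culture. The differences between replicates 1 and 2 correlated across genes (r = 0.273, 0.236 and 0.204), and with 2 pairs this does not establish a pairing. With the replicate block, 10, 10 and 0 members, 40, 41 and 15 other neutrophil genes and 2003, 3713 and 4278 genes in all were called, with members' medians of −4.19, −4.01 and −0.05.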
